A study of Mus musculus with 12 samples.

Results

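The calcium/calmodulin-dependent protein kinase genes followed here are 10 mouse genes, taken by their symbols from the 41388 genes counted in each library. They are the 4 CaMKII genes Camk2a, Camk2b, Camk2d and Camk2g, the CaMKIV gene Camk4, the CaMKI genes Camk1, Camk1d and Camk1g, and the upstream kinase genes Camkk1 and Camkk2. All 10 passed the filter on low counts, with 400 to 21729 reads per gene and library. The libraries were made from cortical neurons of Swiss Webster mouse embryos of embryonic day 16, which received a lentivirus at day 5 in vitro and gave RNA at day 10, after depletion of ribosomal RNA. Of the 12 libraries, 4 carried exon 1 of huntingtin with 72 glutamines (Htt-72Q), as long as the repeats of Huntington disease patients, 4 carried exon 1 with 25 glutamines (Htt-25Q), as in people without the disease, and 4 carried a virus with no huntingtin insert. That last group is called control vector. Its infection label reads "Empty vector" in 3 libraries and "Control vector" in control vector 2.

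The constructs held exon 1 only, and the labels do not say which species or promoter they came from, or which share of cells was infected. The labels also do not say whether the libraries of a group came from separate cultures or litters, so the p-values measure the spread between these libraries, which may be partly technical. A number at the start of each library's description (22, 24, 26, 27 or 27_1) is called its preparation here, without a stated meaning. The counts of each library were scaled with TMM factors to CPM, the count relative to the scaled total of its library. The mouse gene Htt averaged 168 ± 35.9 CPM with Htt-72Q, 148 ± 27.0 CPM with Htt-25Q and 143 ± 63.8 CPM with control vector (SD, n = 4 each). Its log2 fold change in Htt-72Q against control vector was 0.24 ± 0.25 (SE, edgeR adjusted p = 0.529), which did not pass the threshold, and whether reads of the constructs were counted at this gene is not known.

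Calcium entering a neuron binds calmodulin, and calcium-loaded calmodulin opens the catalytic site of these kinases. CaMKII is a large ring-shaped holoenzyme that can phosphorylate itself and stay active after the calcium signal has passed. Its alpha and beta subunits are best known from synaptic plasticity in forebrain neurons, whereas the gamma and delta subunits occur in many tissues. The other kinases form a cascade in which CaMKK1 and CaMKK2 switch on CaMKI and CaMKIV by phosphorylation, and CaMKIV acts in the nucleus on the transcription factor CREB.

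In Htt-72Q neurons 6 of the 10 genes fell against both other groups: Camk2b, Camkk2, Camk2a, Camk4, Camk1d and Camk2d. Camk2b fell most, to 242 ± 28.3 CPM with Htt-72Q, against 799 ± 53.0 CPM with Htt-25Q and 804 ± 83.1 CPM with control vector (SD, n = 4 each). These are whole cultures, in which fewer cells of a type and less RNA per cell cannot be told apart. The gamma subunit gene Camk2g lay on the other side, with 186 ± 29.3 CPM with Htt-72Q, 138 ± 17.9 CPM with Htt-25Q and 144 ± 9.39 CPM with control vector, and was called higher against Htt-25Q. Camk1, Camk1g and Camkk1 did not pass the test, and between Htt-25Q and control vector 0 of the 10 passed. These calls are from the fit without a block for preparation. With that block, Camk1g was also called lower in both comparisons (edgeR adjusted p = 0.00747 against control vector and 0.0220 against Htt-25Q) and Camk2g also higher against control vector (edgeR adjusted p = 0.0282).

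Against control vector, 6 of 10 genes were called lower in Htt-72Q and 0 higher, at an adjusted p under 0.05 in the edgeR quasi-likelihood test without a block (7 lower and 1 higher with it). Among all 14707 genes tested, 13.7% were called lower and 9.44% higher (23.2% in either direction). Against Htt-25Q, 6 were called lower, the same 6 genes, and 1 higher, where 13.4% of all genes were called lower and 9.06% higher (22.5% in either direction). The fall was at least 2-fold in 4 of 10 genes in each comparison, where 5.98% of all genes fell that far against control vector and 6.15% against Htt-25Q. Both comparisons use the same Htt-72Q libraries, so they are not independent. The median log2 fold change of the 10 genes was -0.71 against control vector and -0.62 against Htt-25Q, beside 0.030 and 0.034 over all genes tested.

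**Figure D1:**
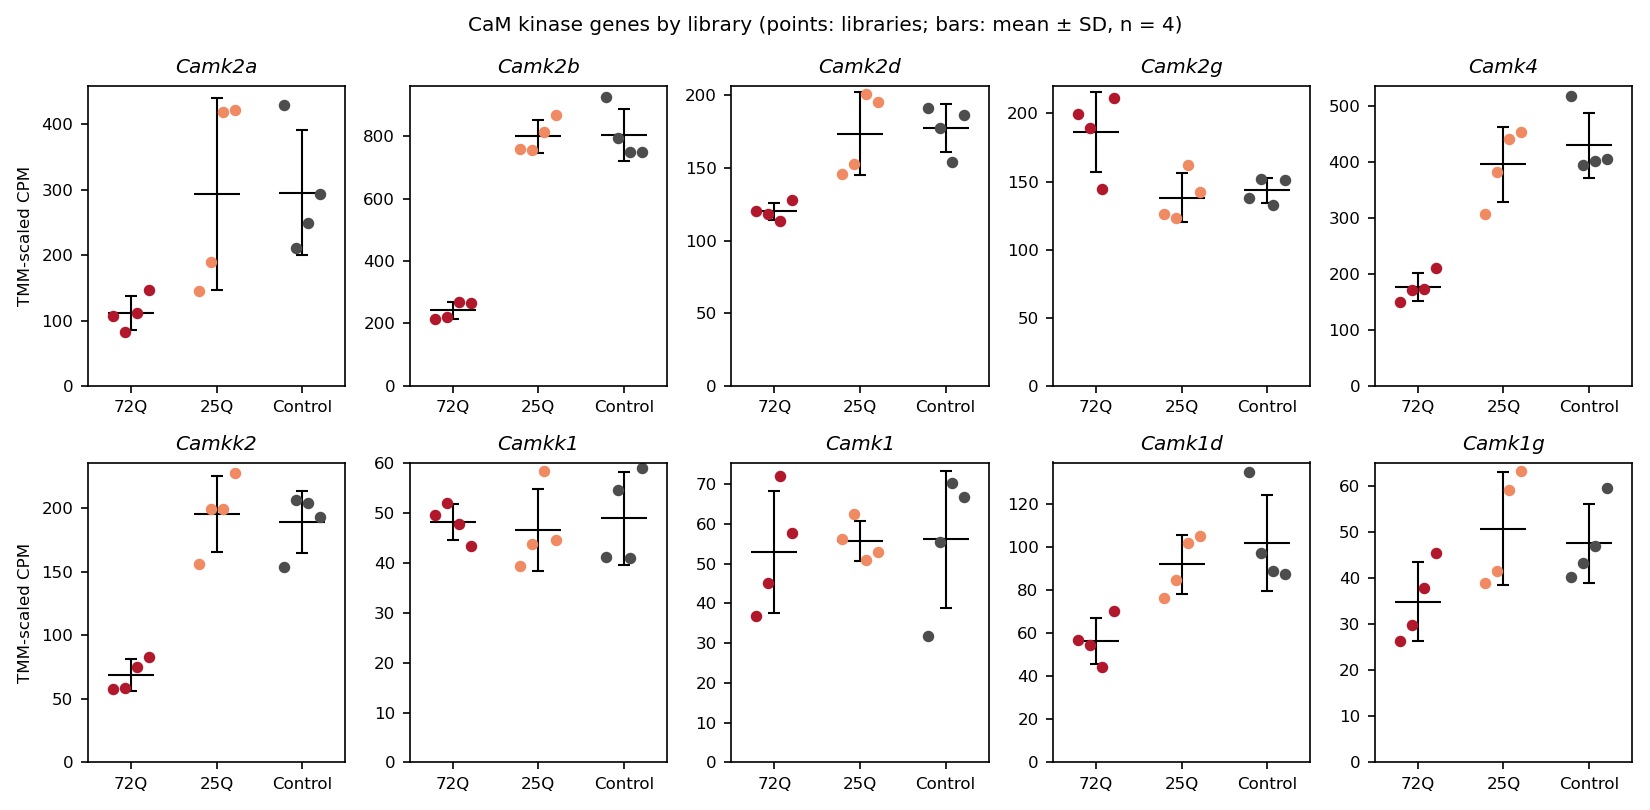
TMM-scaled CPM of each of the 10 genes (vertical axes, from 0) in the Htt-72Q, Htt-25Q and control vector libraries (horizontal axes), with 1 point per library and black bars for mean ± SD (n = 4). Camk2b, Camk4 and Camkk2 sit low in all 4 Htt-72Q libraries, whereas the Htt-25Q and control vector libraries overlap in every panel.

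Counting ranges instead of tests, the 4 Htt-72Q libraries lay wholly below the 4 control vector libraries in 6 of 10 genes and wholly above in 0. Over all genes tested these shares were 13.6% and 10.1%. Below the Htt-25Q libraries they lay in 5 of 10 genes and above in 0, where all genes gave 15.1% and 11.6%. The gene that dropped out is Camk2a, whose highest Htt-72Q library and lowest Htt-25Q library both round to 146 CPM.

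Camk2b encodes the beta subunit of CaMKII, which binds actin in dendritic spines. The gene lies on chromosome 11 from 5969644 to 6066362 on the minus strand (GRCm38). It stood at 214, 220.3, 268 and 264 CPM in Htt-72Q 1 to 4, at 759, 756, 812 and 868 CPM in Htt-25Q 1 to 4, and at 925, 792, 748 and 750.0 CPM in control vector 1 to 4. The highest Htt-72Q library was well under the lowest of the other 8. On the log2 scale the change was -1.73 ± 0.12 against control vector (SE, adjusted p = 4.06e-07), a 3.33-fold lower level, and -1.72 ± 0.12 against Htt-25Q (edgeR adjusted p = 4.02e-07).

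Camk2a encodes the alpha subunit, the main partner of beta in forebrain synapses. Its locus is on chromosome 18, 60925618 to 60988152, plus strand. It stood at 107, 82.9, 112 and 146 CPM in Htt-72Q, at 146, 189, 419 and 422 CPM in Htt-25Q, and at 429, 210.3, 249.6 and 294 CPM in control vector. The Htt-72Q libraries were low throughout, but Htt-25Q 1 and 2 were also low and the spread of the other groups was wide. The fitted log2 fold change was -1.40 ± 0.32 against control vector (SE, adjusted p = 0.00612) and -1.39 ± 0.32 against Htt-25Q (edgeR adjusted p = 0.00663). The 95% interval against control vector ran from -2.09 to -0.71, the widest of the 10.

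Camk2d, which encodes the delta subunit best known from heart muscle, lies on chromosome 3 from 126596302 to 126844913 on the plus strand. It stood at 120.3, 118, 114 and 128 CPM in Htt-72Q, at 146, 153, 201 and 196 CPM in Htt-25Q, and at 192, 177, 154 and 186 CPM in control vector. The Htt-72Q libraries kept within a narrow range below all others. The log2 difference was smaller than for the alpha and beta genes, at -0.56 ± 0.13 against control vector (SE, edgeR adjusted p = 0.00482) and -0.53 ± 0.13 against Htt-25Q (edgeR adjusted p = 0.00704).

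Camk2g encodes the gamma subunit, known from excitatory neurons as a carrier of calmodulin to the nucleus. The gene lies on chromosome 14 from 20734875 to 20794088 on the minus strand. It stood at 199, 189, 144 and 212 CPM in Htt-72Q, at 126, 123, 162 and 142 CPM in Htt-25Q, and at 138, 152, 133 and 151 CPM in control vector. Htt-72Q 1, 2 and 4 were above all 8 other libraries, and Htt-72Q 3 was among them. The log2 fold change was 0.43 ± 0.13 against Htt-25Q (SE, adjusted p = 0.0318), which passed the threshold, and 0.37 ± 0.13 against control vector (edgeR adjusted p = 0.0556), which did not.

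With preparation number as a block, Camk2g was called higher against both groups, by 0.36 against control vector (adjusted p = 0.0282) and by 0.51 against Htt-25Q (edgeR adjusted p = 0.0112). Without Htt-72Q 3, the adjusted p against control vector was 0.0129. The call against Htt-25Q was lost without Htt-72Q 1, 2 or 4 (adjusted p = 0.0771, 0.0737 and 0.0672) and without Htt-25Q 1, 2 or 4 (0.0885, 0.0965 and 0.0730). The libraries also fall into 2 sets of 6 that cross the groups, at 14.2 to 17.98 CPM and at 24.8 to 32.4 CPM of the catenin gene Ctnnd1. Camk2g was higher in the set with little Ctnnd1 within each group: 189 to 212 CPM in 3 Htt-72Q libraries, 162 CPM in 1 Htt-25Q library and 151 to 152 CPM in 2 control vector libraries. In the other set it stood at 144 CPM in 1 Htt-72Q library, 123 to 142 CPM in 3 Htt-25Q libraries and 133 to 138 CPM in 2 control vector libraries. With a term for these sets, the log2 fold change was 0.28 against Htt-25Q (adjusted p = 0.0865) and 0.29 against control vector (edgeR adjusted p = 0.0529). The part of these sets in the Camk2g result was otherwise not tested.

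**Figure D2:**
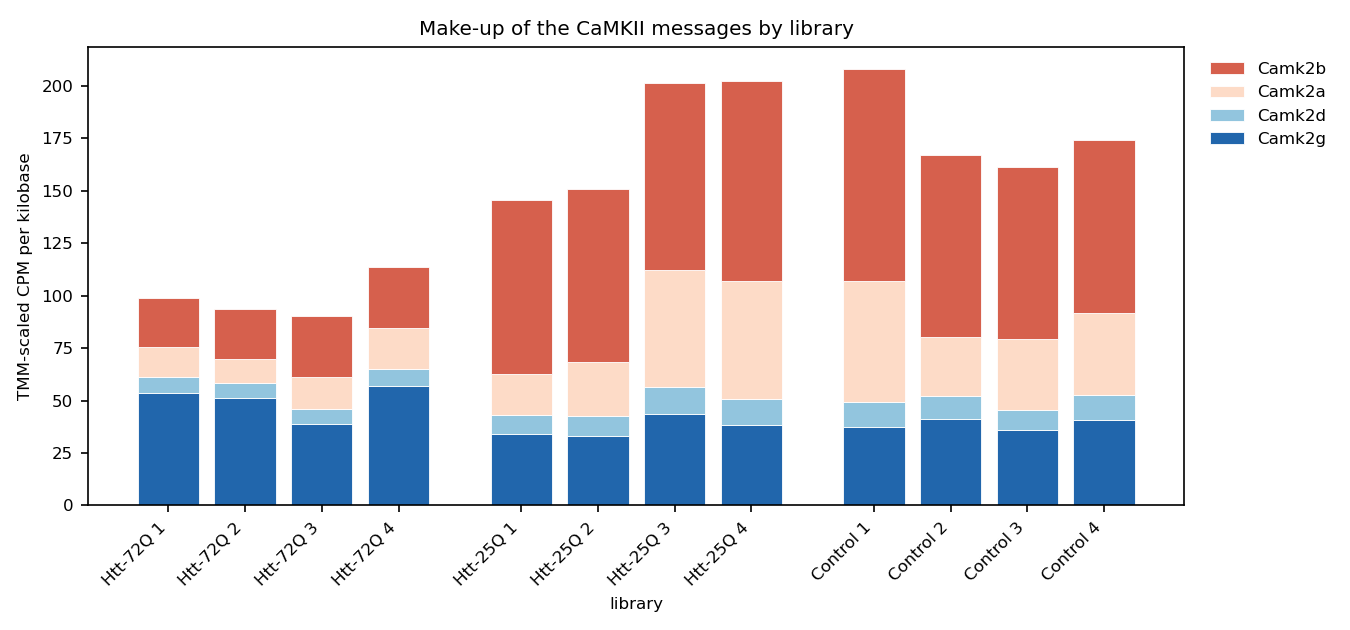
Stacked levels of the 4 CaMKII genes per library, as TMM-scaled CPM per kilobase of the length in the files (vertical axis, from 0), for Htt-72Q, Htt-25Q and control vector libraries 1 to 4 (horizontal axis). Camk2g makes up 43.0% to 54.5% of the bar in Htt-72Q libraries, whereas Camk2b is the largest piece in the other 8.

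Per kilobase of exonic length, the make-up of the CaMKII messages was different in Htt-72Q. Camk2g held 50.5 ± 5.35% of the summed CaMKII level in Htt-72Q, 21.5 ± 1.82% in Htt-25Q and 22.1 ± 2.90% in control vector (SD, n = 4 each). Camk2b held 26.8 ± 3.85% in Htt-72Q, 50.8 ± 6.14% in Htt-25Q and 49.7 ± 2.14% in control vector. The sum of the 4 genes was 99.3 ± 10.2 CPM per kilobase in Htt-72Q, 175 ± 30.9 in Htt-25Q and 178 ± 21.02 in control vector, and the highest Htt-72Q library (114) was below the lowest of the others (146). These shares rest on the lengths in the deposited files, which differ from GENCODE M21 for Camk2g (3703 against 6401 bases) and Camk2d. With the GENCODE lengths, tried after the shares were seen, Camk2g held 38.3 ± 5.08% in Htt-72Q, 13.97 ± 1.297% in Htt-25Q and 14.4 ± 2.08% in control vector. Camk2b then held 35.0 ± 4.02% in Htt-72Q, 57.0 ± 7.24% in Htt-25Q and 55.9 ± 2.81% in control vector.

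Ratios between 2 genes of a subfamily in the same library do not depend on how the library is scaled, and their differences between groups do not depend on the lengths. The log2 ratio of Camk2b to Camk2g, per base of exon, was -0.92 ± 0.35 in Htt-72Q and 1.18 ± 0.19 in control vector (SD, n = 4 each), a 4.28-fold lower ratio in Htt-72Q. The ratio of Camk2a to Camk2g differed by -1.74 on the log2 scale, that of Camk2b to Camk2d by -1.18, that of Camk2d to Camk2g by -0.92 and that of Camk2a to Camk2d by -0.82. For the pair of CaMKK genes, Camkk2 over Camkk1, the difference was -1.46. In each of these 6 ratios the Htt-72Q and control vector libraries did not overlap. The two-sided exact permutation test gave p = 0.0286 for each, the smallest that 4 against 4 freely exchanged libraries allow. The adjusted p was 0.0476 over the 10 pairs of genes compared. The test did not keep libraries of the same preparation together, so these p-values ignore that pairing of libraries.

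The ratio of Camk2a to Camk2b differed by 0.36 (exact permutation p = 0.143, adjusted p = 0.179), so these genes were not shown to change unequally. The ratios among Camk1, Camk1d and Camk1g did not pass either, with adjusted p from 0.179 to 0.286 by the same exact test. Against Htt-25Q, 5 of the 10 ratios reached exact permutation p = 0.0286 but 0 passed after adjustment (adjusted p = 0.0571). Over 10 pairs, ratios at this smallest p pass the adjustment only where at least 6 pairs reach it. Passing or not thus turned on the ratio of Camk2a to Camk2d (exact permutation p = 0.0571 against Htt-25Q). The CaMKII ratios share genes, so they are not independent. Between Htt-25Q and control vector 0 of 10 passed.

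Leaving out any single Htt-72Q library, or control vector 1, left 0 of 10 ratios past the adjusted threshold against control vector. Without Htt-25Q 1, 6 of 10 passed against Htt-25Q.

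In the cascade, Camkk2, which also activates the energy sensor AMPK, fell, and its paralog Camkk1 was not called. Camkk2 lies on chromosome 5 from 122731173 to 122779410 on the minus strand. It stood at 58.0, 58.9, 75.2 and 83.0 CPM in Htt-72Q, at 156, 199.7, 199 and 228 CPM in Htt-25Q, and at 153, 206, 204 and 193 CPM in control vector. All 4 Htt-72Q libraries were below the other 8. On the log2 scale Camkk2 differed by -1.46 ± 0.16 against control vector (SE, adjusted p = 1.54e-05) and -1.51 ± 0.16 against Htt-25Q (edgeR adjusted p = 1.14e-05).

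Camkk1 (chromosome 11, 73019008 to 73042073, plus strand) stood at 49.7, 52.0, 47.9 and 43.5 CPM in Htt-72Q, at 39.4, 43.8, 58.4 and 44.6 CPM in Htt-25Q, and at 41.2, 54.6, 41.0 and 59.2 CPM in control vector. The groups overlapped fully. Its log2 fold change was -0.019 against control vector, with a 95% interval from -0.35 to 0.32 (edgeR adjusted p = 0.945), and 0.052 against Htt-25Q (adjusted p = 0.852).

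Camk4 encodes CaMKIV, the nuclear kinase of the cascade. The gene lies on chromosome 18 from 32939041 to 33195767 on the plus strand. It stood at 151, 171, 174 and 211 CPM in Htt-72Q, at 307, 383, 441 and 454 CPM in Htt-25Q, and at 518, 395, 402 and 406 CPM in control vector. The groups of Htt-25Q and control vector overlapped, and every Htt-72Q library was below both. Camk4 differed by a log2 fold change of -1.28 ± 0.15 against control vector (SE, adjusted p = 3.25e-05) and -1.17 ± 0.15 against Htt-25Q (edgeR adjusted p = 7.33e-05).

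Of the CaMKI genes, Camk1d fell. CaMKI kinases are known from axon and dendrite growth in cultured neurons. Camk1d (chromosome 2, 5293457 to 5714515, minus strand) stood at 57.0, 54.4, 44.5 and 70.2 CPM in Htt-72Q, at 76.4, 84.7, 102 and 105 CPM in Htt-25Q, and at 135, 97.2, 88.8 and 87.5 CPM in control vector. The Htt-72Q libraries lay below all others, with control vector 1 the highest. The log2 fold change was -0.85 ± 0.17 against control vector (SE, adjusted p = 0.00260) and -0.70 ± 0.17 against Htt-25Q (edgeR adjusted p = 0.00914).

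Camk1g (chromosome 1, 193346346 to 193370297, minus strand), whose product is anchored to membranes by a lipid tail, stood at 26.2, 29.8, 37.7 and 45.5 CPM in Htt-72Q, at 38.8, 41.5, 59.1 and 63.2 CPM in Htt-25Q, and at 40.3, 43.3, 46.9 and 59.6 CPM in control vector. The ranges overlapped, with the highest Htt-72Q library above the lowest of both other groups. The log2 fold change was -0.44 ± 0.21 against control vector (SE, adjusted p = 0.136) and -0.54 ± 0.20 against Htt-25Q (edgeR adjusted p = 0.0740). With preparation number as a block it was called lower against both, with -0.46 against control vector (edgeR adjusted p = 0.00747) and -0.45 against Htt-25Q (edgeR adjusted p = 0.0220). That block gives 7 genes called lower and 1 higher, Camk2g, in either comparison. Over all genes it called 17.2% lower and 13.4% higher against control vector, and 13.4% lower and 7.84% higher against Htt-25Q. Against Htt-25Q it also passed without Htt-25Q 1 (adjusted p = 0.0472) or without Htt-72Q 4 (adjusted p = 0.0372).

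Camk1 (chromosome 6, 113334124 to 113343984, minus strand) stood at 36.9, 45.1, 72.2 and 57.7 CPM in Htt-72Q, at 56.3, 62.6, 50.9 and 53.0 CPM in Htt-25Q, and at 31.9, 55.6, 70.3 and 66.7 CPM in control vector. The groups overlapped fully, and the lowest library of all was control vector 1. Its log2 fold change was -0.082 against control vector, with a 95% interval from -0.58 to 0.41 (edgeR adjusted p = 0.834), and -0.073 against Htt-25Q (adjusted p = 0.860). Camk1 shares 232 exonic bases with the DNA repair gene Ogg1 on the other strand, and since the strand setting of the counting is not given, reads there cannot be assigned to either gene.

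**Figure D3:**
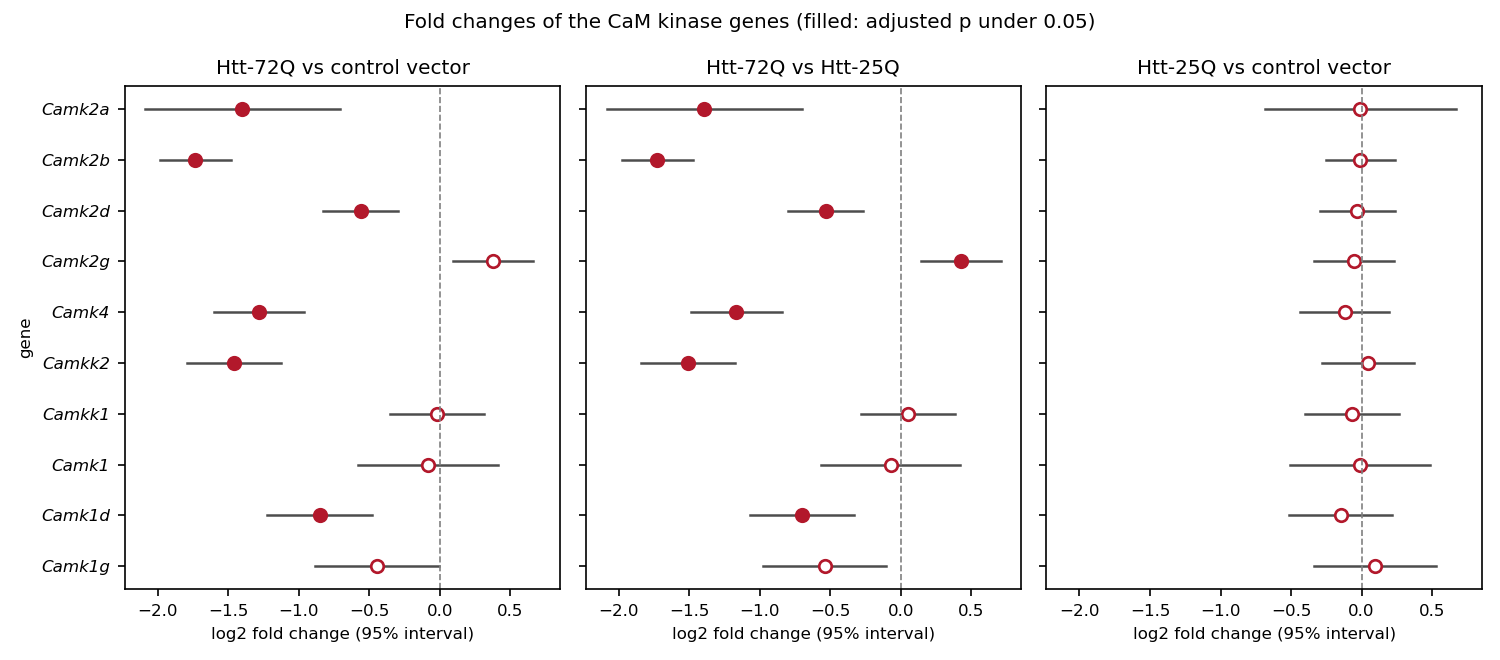
Log2 fold change (horizontal axis) of each of the 10 genes (vertical axis) in the 3 comparisons, with 95% intervals from the edgeR fit, filled where the adjusted p was under 0.05. In the panels of Htt-72Q, 6 genes lie to the left of 0 with filled points, Camk2g lies to the right, and all intervals of Htt-25Q against control vector include 0.

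Htt-25Q against control vector asks what exon 1 with the short repeat does. Of the 10 genes 0 were called in either direction, and of all genes tested 0.0% were called higher, lower or 2-fold lower. At an unadjusted p under 0.05, edgeR without a block gave 129 of 14707 genes and 0 of the 10. That count depends on the block. It was 603 genes with the block by preparation and 1040 with preparations 27 and 27_1 joined. After adjustment both blocks called 0 genes, as did DESeq2 and limma voom. The libraries did not overlap in 0 of 10 genes, where all genes gave 0.673% higher and 0.32% lower. The log2 fold changes ran from -0.15 for Camk1d to 0.095 for Camk1g. The 95% interval was narrowest for Camk2b, from -0.25 to 0.24, and widest for Camk2a, from -0.69 to 0.67, so changes of Camk2a within that span remain possible.

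Htt-25Q libraries differed among themselves. In 8 of the 10 genes Htt-25Q 3 and 4, from preparations 27_1 and 27, both lay above Htt-25Q 1 and 2, from preparations 22 and 24. The exceptions were Camk1 and Camkk2. Of all genes tested, 28.8% had this order. Between the libraries of preparation 22, Camk2a in Htt-25Q differed from control vector by -1.56 on the log2 scale and Camk1d by -0.82, whereas between those of preparation 27_1 the differences were 0.51 for Camk2a and 0.22 for Camk1d.

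Comparing Htt-72Q with control vector inside each preparation, 7 of the 10 genes were lower in all 4 preparations that hold both groups: the 6 called genes and Camk1g. Of all genes tested, 23.9% were lower and 22.7% higher in all 4. Camk2b differed by -2.11 to -1.48 and Camkk2 by -1.81 to -1.22. Camk4 differed by -1.78 to -0.94, Camk2a by -2.01 to -1.01, Camk1d by -1.24 to -0.32 and Camk2d by -0.67 to -0.44. Camk2g was higher in all 4, by 0.12 to 0.53. Against Htt-25Q the same 7 genes were lower in all 3 shared preparations, where 26.8% of all genes were lower and 25.7% higher. Camk2g was higher in all 3, by 0.39 to 0.66. Camk1 and Camkk1 changed direction between preparations in both comparisons.

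**Figure D4:**
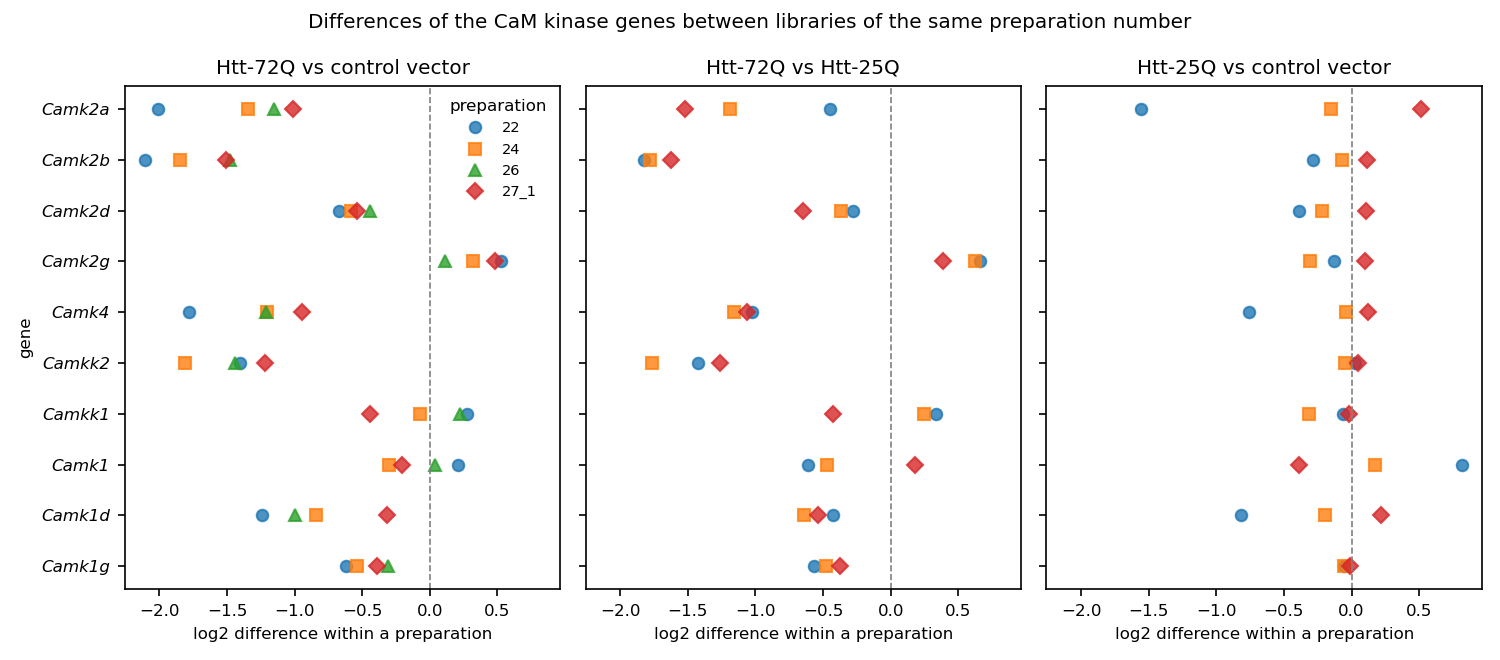
Log2 differences of TMM-scaled CPM (horizontal axis) of each of the 10 genes (vertical axis) between libraries that share a preparation number, with 1 point per preparation, for Htt-72Q against control vector, Htt-72Q against Htt-25Q and Htt-25Q against control vector. Camk2b lies between -2.11 and -1.48 in all 4 preparations of the left panel, and Camk2a ranges from -1.56 to 0.51 in the right panel.

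Levels of different genes were compared per kilobase. In Htt-72Q Camk2g stood highest, at 50.3 ± 7.92 CPM per kilobase (SD, n = 4), with Camk2b next at 26.5 ± 3.10 and no overlap between them. Below these, from Camk2a (15.0 ± 3.49) through Camk4, Camkk2, Camkk1, Camk1g, Camk1 and Camk1d down to Camk2d (7.54 ± 0.375), every neighbour in the order overlapped. In Htt-25Q the first place was held by Camk2b at 87.5 ± 5.81, apart from Camkk2 at 40.4 ± 6.11, Camk2a, Camk2g and Camk4 at 32.1 ± 5.46, and a lower tier ran from Camk1g at 16.2 ± 3.92 to Camk1 at 9.18 ± 0.842. The order in control vector was much the same, with Camk2b at 88.1 ± 9.11, then Camk2a at 39.6 ± 12.8, Camkk2 at 39.1 ± 5.08, Camk2g at 38.8 ± 2.54 and Camk4 at 34.9 ± 4.76, and a lower tier from Camk1g at 15.2 ± 2.71 to Camk1 at 9.25 ± 2.85. Within each tier of Htt-25Q and control vector the neighbours overlapped. This order rests on the lengths in the files, which are far from the exonic lengths of GENCODE M21 for Camk4 (12331 against 3259 bases), Camkk2 (4843 against 10921), Camk2g (3703 against 6401) and Camk2d (15928 against 22493). With the GENCODE lengths, tried after the levels were seen, Camk4 came first in every group, at 54.2 ± 7.74 CPM per kilobase with Htt-72Q, 122 ± 20.7 with Htt-25Q and 132 ± 18.02 with control vector. Camk2g then stood at 29.1 ± 4.58 CPM per kilobase in Htt-72Q and overlapped Camk2b at 26.5 ± 3.10.

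For the gene with the highest level per kilobase in control vector in each subfamily, the 3 genes of most similar pattern over the 12 libraries were listed among 12347 genes, by Pearson's r of log2 CPM. The libraries fall apart by group, so r is given as a description only. For Camk2b they were Plcb1 (r = 0.998), Frmpd4 (0.996) and Kcnq5 (0.994), and for Camk4 they were Prkce (0.993), Rph3a (0.992) and Synpo (0.990). For Camkk2 they were Gria2, Vstm2l and Hdac9 (0.990 each), and for Camk1g they were Hr (0.985), Rgs16 (0.983) and Cap2 (0.967).

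Promoter sequence was available from RefSeq (GRCm38.p6) for 7 of the 10 genes in 8 windows of 250 bases before an annotated start. The 3 windows with no base in a GENCODE M21 exon belong to genes that fell in Htt-72Q and are shown with the GC box, the binding motif of Sp1-type factors, in capitals (GGGCGG, or CCGCCC on the other strand). The Camk2b window is chr11:6065749-6065998 on the minus strand and the Camk2d window chr3:126596701-126596950 on the plus strand. Both lie inside the gene as GENCODE draws it, downstream of an earlier start. The Camk1d window is chr2:5714763-5715012 on the minus strand.
Camk2b: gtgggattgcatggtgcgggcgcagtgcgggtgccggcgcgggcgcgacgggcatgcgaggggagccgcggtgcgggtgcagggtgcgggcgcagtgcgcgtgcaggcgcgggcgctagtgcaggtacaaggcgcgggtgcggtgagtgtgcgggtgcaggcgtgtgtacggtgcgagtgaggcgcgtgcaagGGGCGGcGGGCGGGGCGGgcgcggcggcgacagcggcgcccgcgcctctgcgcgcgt
Camk2d: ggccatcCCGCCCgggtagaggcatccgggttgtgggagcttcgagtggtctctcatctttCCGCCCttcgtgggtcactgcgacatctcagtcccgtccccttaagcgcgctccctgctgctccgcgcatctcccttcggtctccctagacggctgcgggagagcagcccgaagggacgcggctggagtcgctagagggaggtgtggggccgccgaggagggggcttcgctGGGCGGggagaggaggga
Camk1d: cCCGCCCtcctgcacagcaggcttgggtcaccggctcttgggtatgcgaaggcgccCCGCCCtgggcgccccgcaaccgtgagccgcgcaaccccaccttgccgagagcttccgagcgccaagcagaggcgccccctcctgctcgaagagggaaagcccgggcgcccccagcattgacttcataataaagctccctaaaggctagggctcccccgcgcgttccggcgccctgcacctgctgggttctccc
The share of G and C was 78.4% in the Camk2b window, 68.4% in that of Camk2d and 69.2% in that of Camk1d, with 3, 3 and 2 GC boxes. A GC box was present in 6 of the 8 windows and in 32.7% of all 32851 promoters of the table at the same length. The window of Camkk1, a gene that was not called, held 2 of them. Those of Camk1 and Camk1g, not called in the fit without a block, held 0. The CREB element TGACGTCA was in 0 of the 8 windows (1.55% of all promoters). Its core TGACG, searched on both strands, was in 2 windows, those of Camk1 and Camkk1, and in 17.8% of all promoters. These are matches of letters and say nothing about binding, and the GC box was added to the search after the fold changes were known.

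Genes around the kinases were followed in 7 lists with 77 genes, of which 76 could be tested. In Htt-72Q against control vector 36 of them were called lower and 3 higher, and against Htt-25Q 35 were called lower and 2 higher (edgeR quasi-likelihood test). Of all genes tested, 13.7% were called lower and 9.44% higher against control vector, and 13.4% lower and 9.06% higher against Htt-25Q, which is the background for each list. Between Htt-25Q and control vector 0 were called.

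Of the calmodulin genes and the small proteins that buffer calmodulin, 3 of 7 fell in Htt-72Q against control vector and 0 rose (median log2 fold change -0.39). The calmodulin genes Calm2 and Calm3 differed by -0.39 (edgeR adjusted p = 0.0913) and -0.25 (edgeR adjusted p = 0.236) and were not called. Nrgn, which encodes neurogranin, a reservoir of calmodulin in dendrites, fell to 103 ± 20.3 CPM in Htt-72Q, against 229.5 ± 54.3 CPM in control vector (log2 fold change -1.15 ± 0.18, adjusted p = 0.000417). Gap43, its relative in growth cones, fell by 0.39 on the log2 scale.

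Among inhibitors and anchors of CaMKII, 6 of 10 fell and 0 rose (median -0.59). They included the postsynaptic scaffold gene Lrrc7, which encodes densin (log2 fold change -0.80 ± 0.18, SE, adjusted p = 0.00538), the NMDA receptor subunit gene Grin2b, whose product binds CaMKII (-1.42 ± 0.36, with 385 ± 64.8 CPM in Htt-72Q and a wide 1027 ± 754 CPM in control vector), and Dlg4, which encodes PSD-95 (-0.53 ± 0.15). Against Htt-25Q, Grin2b (-0.94, edgeR adjusted p = 0.0744) and Dlg4 (-0.38, edgeR adjusted p = 0.0774) were not called. Camk2n1, an inhibitor of CaMKII, was called lower against Htt-25Q, with 95.7 ± 46.6 CPM in Htt-72Q and 226 ± 49.1 CPM in Htt-25Q (log2 fold change -1.24 ± 0.35, adjusted p = 0.0209). Against control vector its log2 fold change was -0.91 and its adjusted p 0.0748.

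Among relatives of the kinases, 4 of 12 fell and 0 rose. Dclk3, a doublecortin-like kinase gene, fell to 4.76 ± 1.27 CPM in Htt-72Q, against 16.6 ± 2.69 CPM in control vector (-1.80 ± 0.21 on the log2 scale, SE, adjusted p = 2.60e-05). Camkv, which encodes a kinase-like protein without catalytic activity, differed by -1.10 ± 0.12, Dclk1 by -1.02 ± 0.14 and Eef2k, the calmodulin-dependent kinase of elongation factor 2, by -0.86 ± 0.11. The only relative called higher was Pnck, another CaMKI-type kinase gene, against Htt-25Q (log2 fold change 0.56, adjusted p = 0.0214). It was named after its value was seen.

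**Figure D5:**
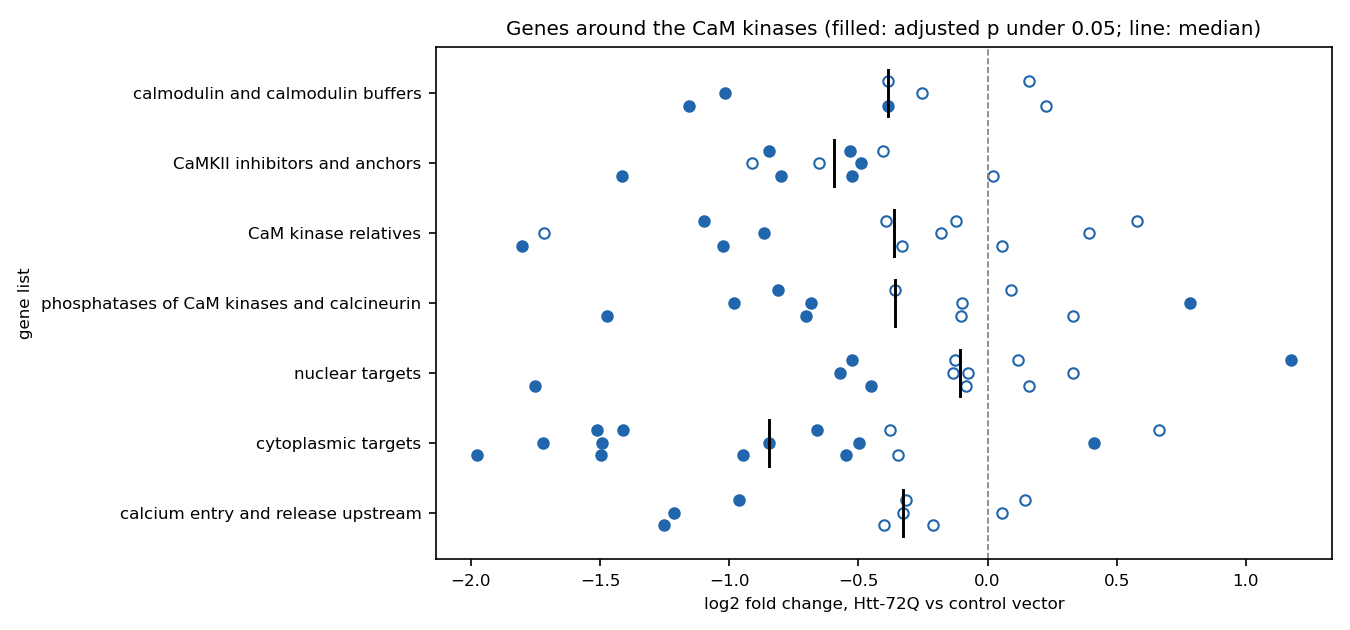
Log2 fold change of Htt-72Q against control vector (horizontal axis) for the tested genes of 7 lists (vertical axis), with 1 point per gene, filled where the adjusted p was under 0.05, and a black line at the median of each list. The list of cytoplasmic targets has its median at -0.85 with 11 of 15 genes called lower, and that of nuclear targets has its median at -0.11.

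Of the phosphatases that reverse CaM kinase action and of calcineurin, 5 of 11 tested genes fell and 1 rose. The calcineurin catalytic subunit genes Ppp3ca and Ppp3cb fell by 0.98 ± 0.13 and 0.70 ± 0.12 on the log2 scale (SE). Ppm1e, whose product removes phosphate from CaM kinases, fell by 0.81 ± 0.16, and Rcan2, a calcineurin regulator gene, by 0.68 ± 0.16. The 1 that rose, Ppp1cc, a catalytic subunit of protein phosphatase 1, was named after its value was seen (0.78, adjusted p = 0.0121). Against Htt-25Q Ppp1cc was not called (0.50, edgeR adjusted p = 0.0916). A further gene of the list, Ppp1ca, had almost no reads in the files and was not tested.

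Nuclear targets were mixed, with 4 of 12 lower and 1 higher (median -0.11). The class II histone deacetylase genes, whose products CaM kinases export from the nucleus, included Hdac9 at 37.7 ± 8.31 CPM in Htt-72Q and 127 ± 20.1 CPM in control vector (log2 fold change -1.75 ± 0.19, SE, adjusted p = 1.73e-05) and Hdac5 at -0.52 ± 0.12. Srf differed by -0.57 ± 0.12. Crem, a CREB relative that also makes repressor forms, rose to 26.0 ± 5.20 CPM in Htt-72Q, against 11.6 ± 4.65 CPM in control vector (1.18 ± 0.28, adjusted p = 0.00775).

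Of the cytoplasmic targets, 11 of 15 fell and 1 rose (median -0.85), and against Htt-25Q 11 of 15 fell and 0 rose. Gria1, the AMPA receptor subunit that CaMKII phosphorylates, fell to 163 ± 19.4 CPM in Htt-72Q, against 434 ± 42.7 CPM in control vector (log2 fold change -1.41 ± 0.14, SE, adjusted p = 6.19e-06). Adcy1, a calmodulin-stimulated adenylyl cyclase gene, differed by -1.50 ± 0.16, the calmodulin-dependent phosphodiesterase gene Pde1a by -1.51 ± 0.20 and neuronal nitric oxide synthase Nos1 by -1.98 ± 0.26. The 1 gene called higher, Prkaa1, which encodes a catalytic subunit of AMPK, was named after its value was seen (0.41, adjusted p = 0.0371).

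Of 9 genes of calcium entry and release, 3 fell and 0 rose (median -0.33). They were the NMDA receptor subunit gene Grin2a (log2 fold change -1.21 ± 0.27, SE, adjusted p = 0.00478), the ryanodine receptor gene Ryr2 (-1.25 ± 0.30) and the L-type calcium channel gene Cacna1c (-0.96 ± 0.24, edgeR quasi-likelihood test). Control vector values were widely spread, at 43.0 ± 13.4 CPM for Grin2a, 187 ± 77.6 CPM for Ryr2 and 128 ± 51.6 CPM for Cacna1c (SD, n = 4 each). Against Htt-25Q, Cacna1c passed narrowly (edgeR adjusted p = 0.0431).

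Markers of neurons moved with these groups. The summed level of 7 excitatory neuron markers was 314 to 468 CPM with Htt-72Q, 703 to 943 CPM with Htt-25Q and 663 to 820 CPM with control vector. Against control vector 4 of 7 were called lower and 0 higher, Neurod6, Slc17a7 and Tbr1 among them, and Slc17a6 stood at 87.9 ± 15.6 CPM in Htt-72Q, against 67.9 ± 8.58 CPM in control vector, and was not called. The sum of 7 inhibitory neuron markers was 103 to 163 CPM with Htt-72Q, 165 to 295 CPM with Htt-25Q and 207 to 276 CPM with control vector, with 3 of 7 called lower. The sum of 6 general neuron markers was 4662 to 4866 CPM with Htt-72Q, 5926 to 6929 CPM with Htt-25Q and 6470 to 7496 CPM with control vector, with 4 of 6 called lower. Within it Map2 and Stmn2 were not called (log2 fold changes -0.27 and -0.22).

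The sum of 7 astrocyte markers was 1662 to 2057 CPM with Htt-72Q, 1861 to 2131 CPM with Htt-25Q and 1823 to 2608 CPM with control vector, with 0 of 7 called. Oligodendrocyte lineage markers summed to 507 to 620.0 CPM with Htt-72Q, 494 to 612 CPM with Htt-25Q and 527 to 696 CPM with control vector, with 0 of 7 called against control vector and 1 called lower against Htt-25Q (Mog). Markers of progenitors summed to 125 to 148 CPM with Htt-72Q, 105 to 150 CPM with Htt-25Q and 93.9 to 130.3 CPM with control vector, with 0 of 5 tested genes called. Microglial markers summed to 7.09 to 24.4 CPM with Htt-72Q, 7.01 to 11.9 CPM with Htt-25Q and 3.30 to 12.8 CPM with control vector. Nearly all of these sums was Aif1, with its highest value, 24.2 CPM, in Htt-72Q 3. The other microglial markers averaged at most 0.381 CPM in any group, and Tmem119 was at 0 in all Htt-25Q and control vector libraries. Endothelial markers summed to 0.918 to 3.98 CPM with Htt-72Q, 1.302 to 2.60 CPM with Htt-25Q and 0.907 to 2.27 CPM with control vector. Of the 6 microglial and 4 endothelial markers 1 each could be tested, and neither was called. The part of neuron number or neuron state in the kinase results was not tested.

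Libraries held 12439335 to 20040985 counted reads with Htt-72Q, 18097932 to 27471442 with Htt-25Q and 12668531 to 23357966 with control vector. Mitochondrial genes held 11.1% to 15.2% of reads in Htt-72Q, 7.96% to 13.7% in Htt-25Q and 7.26% to 14.7% in control vector. With mitochondrial genes left out, the counts of called kinase genes were 6 against control vector and 7 against Htt-25Q. Library totals in place of TMM factors moved the median of all genes to 0.11 against control vector and called 1925 genes higher and 1702 lower, where TMM called 1389 higher and 2022 lower. Under that scaling the 6 genes were still called lower, and Camk2g was called higher against control vector (0.46, adjusted p = 0.0240). Upper-quartile factors gave 1735 genes higher and 1778 lower, and the same additional call for Camk2g (0.44, edgeR adjusted p = 0.0259).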

How the data were processed

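The 12 libraries come with a table each of raw counts, CPM and RPKM per gene. Reads were aligned to GRCm38 with STAR 2.0.4b and counted with featureCounts 1.45 (Subread), per the submitters' processing notes, and the 2 lanes of each library were merged, per the labels. Not given in the sources used here were the annotation release, the strand setting and how multimapping reads were treated. The CPM values deposited by the authors equal the counts over the library total, and the RPKM values deposited by the authors equal CPM per kilobase of the Length column. The counts deposited by the authors were the values tested.

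Genes were filtered with filterByExpr (minimum count 10), scaled with TMM factors and tested with edgeR 4.0.16 (quasi-likelihood F test, all 12 libraries in 1 fit, 9 residual degrees of freedom, R 4.3.3), with Benjamini-Hochberg adjustment over 14707 genes and a threshold of 0.05. Ratios between genes of a subfamily used counts per exonic base with 0.5 added to each count. They were compared with a two-sided exact permutation test that ignored preparation, adjusted over 10 pairs. Per-kilobase levels divide TMM-scaled CPM by the Length column, or by the GENCODE M21 exonic length as an alternative chosen after the data were seen. Alternatives included limma 3.58.1 (voom), DESeq2 1.42.0, other scalings and filters, replicate blocks and leaving out each library. The fit was also run on simulated counts. These had independent libraries and no preparation effect, so they cannot show how the fit behaves with paired libraries. Figures and summaries used Python 3.11.15, pandas 2.3.3 and numpy 2.4.6.

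The text names the 10 kinase genes, Htt, Ctnnd1, in each list at most 4 called genes with the smallest p in each comparison, of which a few are not reported here, and the 3 genes most alike in pattern for the gene of each subfamily with the highest level in control vector; names outside this rule are Calm2, Calm3, Camk2n1 against control vector, Pnck, Ppp1cc, Ppp1ca, Prkaa1, Mog, Slc17a6, Map2, Stmn2 and Tmem119, chosen after their values were seen. The kinase genes and the lists were chosen with earlier results of these data known. Preparation numbers pair the libraries. In 10 of 10 pairs of libraries with the same preparation, the deviations from the group means correlated over 0.1 (lowest 0.113, median 0.282). Of 34 pairs sharing neither preparation nor title number, 4 did so (median -0.072, highest 0.463). Among pairs with the same title number, most of them also of the same preparation, 10 of 12 did so (median 0.282). A fit with preparation as a block was therefore run. Between any 2 libraries the chi-square of counts was at least 9.00 per degree of freedom, so no library was counted as a repeat of another.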

Additional observations from a re-analysis of the deposited data

Results flagged for a closer look

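Camk4 stood at 518.06 CPM in control vector 1, apart from the other control vector libraries at 395 to 406 CPM, with a gap of 0.908 of the group's range. It was the only one so set apart among 30 groups of 4 libraries (10 genes in 3 groups), and chance sets apart about 1 in 20 groups. Without that library Camk4 was still called lower in Htt-72Q against control vector.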

How the results depend on the processing

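The calls of the 6 genes that fell in Htt-72Q held under all 25 alternatives in both comparisons, and 0 genes were called between Htt-25Q and control vector under any of them. Counts of called kinase genes ran from 6 to 8. Over all genes, calls ran from 2595 to 5004 against control vector and from 2293 to 4204 against Htt-25Q. With the replicate block by preparation, Camk2g (0.36, edgeR adjusted p = 0.0282) and Camk1g (-0.46, edgeR adjusted p = 0.00747) were also called against control vector, and the block changed no other call of the 10 genes against control vector. Leaving out 1 library left 0 to 6 of 10 ratios past the threshold against control vector and 0 to 6 against Htt-25Q. Ratios at the smallest exact permutation p of 0.0286 pass only where at least 6 of the 10 pairs reach it, so they pass or fail together. Why single libraries moved the ratios was not tested. Log2 fold changes near 0 changed sign, none of them called, and the cause was not tested. For Htt-72Q against control vector, Camkk1 came to 0.043 with upper-quartile factors, 0.061 with library totals, 0.0079 with limma voom, 0.0036 with the block by preparation and 0.0013 with preparations 27 and 27_1 joined. Against Htt-25Q it came to -0.093 with a term for the Ctnnd1 sets. For Htt-25Q against control vector, upper-quartile factors gave 0.0023 for Camk2a, 0.0072 for Camk2b and 0.0034 for Camk1, and library totals gave 0.0023 for Camk2b and 0.0051 for Camk1. The term for the Ctnnd1 sets gave 0.0023 for Camk2d, 0.014 for Camk2g and 0.013 for Camkk1. Camk1 came to 0.065 with limma voom, 0.23 with the block by preparation, 0.15 with the joined block and 0.064 with a block by title number, and Camk1g to -0.017 and -0.00052 with the first 2 blocks. Leaving out 1 library, Camk1 ran from -0.28 to 0.040 and Camkk1 from -0.11 to 0.078 against control vector, and from -0.26 to 0.064 and from -0.022 to 0.18 against Htt-25Q. For Htt-25Q against control vector the same ranges were -0.25 to 0.23 for Camk2a, -0.061 to 0.064 for Camk2b, -0.11 to 0.044 for Camk2d, -0.21 to 0.10 for Camk1, -0.23 to 0.014 for Camk1d, -0.036 to 0.22 for Camk1g, -0.20 to 0.030 for Camkk1 and -0.041 to 0.14 for Camkk2. Each kinase gene had at least 400 reads in each library. With GENCODE M21 lengths, chosen after the data were seen, levels per kilobase changed place: Camk4 came first in each group and Camk2g no longer stood apart from Camk2b in Htt-72Q.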
